A study of Caenorhabditis elegans with 45 samples.

Results

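The mir-238 and mir-239 family of Caenorhabditis elegans comprises mir-238, mir-239.1 and mir-239.2, which were found by name in the table of miRNA genes. These were 3 of 257 genes listed, and none of the members was at 0 in any library. miRNAs are short RNAs that repress messenger RNAs paired mainly to their seed, the bases near their 5′ end, and the members of this family share a seed. In worms, loss of mir-238 is known to shorten lifespan. Loss of mir-239 is known to lengthen it and to raise resistance to stress, and the level of mir-239 is known to rise after heat. The sample labels name no stress treatment in the experiment described here, in which the animals differed in the let-7 gene.

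Small RNA was sequenced from whole animals at the mid L4 stage, the last larval stage, grown at 20 °C and collected 45 hours after feeding. There were 15 genotypes with 3 libraries each, lettered A, B and C, which gave 45 libraries. Each of the 14 mutants carried 1 changed nucleotide of let-7a, a conserved developmental miRNA, at 1 of the positions 9 to 22 counted from its 5′ end. In a mutant's name the wild-type base stands before the position and the new base after it. The mutants without a duplication in their genotype label were U9G (strain VT3835, allele ma453), A10U (VT3836, ma454), A17U (VT3827, ma450), U18A (VT3797, ma435), A19U (VT3798, ma436), G20C (VT3829, ma452), U21A (VT3844, ma456) and U22A (VT3799, ma437). The mutants whose label also named mnDp1(umnIs25), marked X;V, were G11U (VT3793, ma431), G12U (VT3825, ma448), U13A (VT3794, ma432), U14A (VT3795, ma433), G15A (VT3796, ma434) and U16G (VT3826, ma449). The wild type (WT) was strain VT1367. Every strain, WT included, carried the transgene maIs105 on chromosome V. Each mutant was represented by 1 strain and 1 allele.

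The members lie at 2 places in the WBcel235 annotation, where each is listed as a separate miRNA gene with a precursor of 98 bases and 2 mature arms. mir-238 (WBGene00003331) is on the minus strand of chromosome III at 8867328 to 8867425. mir-239.1 (WBGene00003332, annotated as mir-239a) is on the plus strand of chromosome X at 11792445 to 11792542. mir-239.2 (WBGene00003333, annotated as mir-239b) is on the minus strand of chromosome X at 11791302 to 11791399, with 1045 bases between it and mir-239.1. No other annotated gene overlapped any of the 3. mir-239.1 is 2951048 bases from let-7 on the same chromosome, and mir-239.2 is further from it. mir-239.1 and mir-239.2 give closely similar mature miRNAs, and how reads that fit both were assigned is not given in the sources used here, so the division of reads between them is uncertain.

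Libraries held between 1018112 and 3567734 miRNA reads, with a median of 2137801. The mutant form of let-7 had more reads than the wild-type form in all 42 mutant libraries, and its lowest share was 62.9%. U9G replicate B stood apart from the other libraries: the correlation of its miRNA levels with the median of the others was 0.867, against at least 0.981 for each of the other 44 libraries. In it, 24 of 130 miRNAs differed by more than 8-fold from the mean of U9G replicates A and C, against at most 5 in any other library set against its own genotype. Those 5 were in U9G replicate C, whose comparison includes U9G replicate B. Outside U9G the most was 2, in A10U replicate B. Results are therefore given with all 45 libraries and without U9G replicate B. Levels are read counts per 1000000 miRNA reads (CPM) after TMM normalisation, a scaling that evens out differences in composition, over all 45 libraries. In bulk RNA, fewer cells of a type and less RNA per cell cannot be told apart. The labels name the replicates only by letter and do not say that they came from separate cultures, so p-values measure the spread between these libraries.

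The members differed in read level by orders of magnitude. Their precursors have the same length, but differences in ligation and amplification between mature sequences were not corrected for. Over the 44 libraries without U9G replicate B, the median normalised CPM was 21439 for mir-238, 118 for mir-239.1 and 17.0 for mir-239.2. The reads behind these values ranged from 20949 to 75124 per library for mir-238, from 144 to 543 for mir-239.1 and from 5 to 70 for mir-239.2. The exact 95% binomial interval, which covers counting error only, had a median half-width of 0.925% of the level for mir-238, 12.8% for mir-239.1 and 35.2% for mir-239.2. From counting error alone, a change in mir-239.2 had to be larger than one in mir-238 to be detected at this depth.

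mir-238, the abundant member, varied little between genotypes outside U9G replicate B. It had, in libraries A, B and C, 23257, 5057 and 23277 CPM in U9G, 22489, 22091 and 17823 in A10U, 22252, 22097 and 22159 in G11U, and 21003, 18700 and 20397 in G12U. The values were 21857, 24634 and 22633 in U13A, 20107, 23078 and 21639 in U14A, 20205, 18986 and 20970 in G15A, and 22271, 22703 and 20602 in U16G. Only U9G replicate B was far from the rest among these 8 mutants. In A17U the values were 23430, 19054 and 19647, in U18A 20988, 26635 and 19618, and in A19U 19037, 23365 and 18525. In G20C they were 21239, 19318 and 19024, in U21A 22333, 19385 and 17921, and in U22A 20593, 22625 and 22556. The WT libraries had 20935, 27332 and 24056 CPM, a mean of 24108 ± 3199 (SD, n = 3). The WT mean was the highest of the 15 on this scale, and its replicate B was the highest library. Scaled by total counts only, the mean of G11U was the highest, at 23645 CPM against 23462 in WT. Besides U9G, the means of the other 13 mutants ran from 19860 ± 1203 in G20C to 23041 ± 1433 in U13A (SD, n = 3 each). With the scaling computed without U9G replicate B, these means ran from 19798 ± 1565 in G12U to 22716 ± 1004 in G11U. Each genotype overlapped its neighbour in the order of the 15 means, which does not compare genotypes further apart.

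mir-239.1 was close to 118 CPM in most genotypes and far higher in 1 library. In replicates A, B and C it had 121, 4002 and 142 CPM in U9G, 127, 115 and 82.6 in A10U, 125, 90.1 and 125 in G11U, and 123, 85.3 and 143 in G12U. The values were 149, 148 and 107 in U13A, 157, 104 and 118 in U14A, 148, 117 and 155 in G15A, and 147, 117 and 90.5 in U16G. Apart from U9G replicate B, the libraries of these mutants spread around the WT level. The values were 154, 108 and 130.3 in A17U, 113, 113 and 114 in U18A, and 88.35, 124 and 111 in A19U. In G20C they were 161, 86.9 and 105, in U21A 179.7, 90.9 and 106, and in U22A 149, 95.9 and 129.7. The WT libraries had 123, 118 and 113 CPM, a mean of 118 ± 5.10 (SD, n = 3). The WT mean was the eighth of 15 from the lowest. Every pair of neighbours in the order overlapped, including U9G with its library at 4002 CPM. Such overlap therefore cannot show that genotypes are alike. Besides U9G, the means ran from 108 ± 18.1 CPM in A19U to 139.8 ± 19.8 in G15A (SD, n = 3 each).

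mir-239.2, the least abundant member, varied most between replicates when U9G replicate B was left out, and was not raised in that library. In replicates A, B and C it had 20.9, 23.8 and 25.9 CPM in U9G, 26.2, 32.1 and 7.72 in A10U, 16.2, 23.7 and 17.2 in G11U, and 16.8, 16.9 and 19.2 in G12U. The values were 20.2, 27.4 and 17.1 in U13A, 16.5, 28.5 and 14.4 in U14A, 32.8, 22.3 and 22.3 in G15A, and 12.2, 24.7 and 15.1 in U16G. Replicates of 1 genotype lay far apart, most of all among these mutants in A10U. The values were 17.0, 19.4 and 9.73 in A17U, 10.0, 25.9 and 12.9 in U18A, and 8.61, 27.6 and 13.2 in A19U. In G20C they were 20.6, 2.66 and 3.56, in U21A 29.0, 13.1 and 15.9, and in U22A 15.9, 4.82 and 17.9. The lowest of these rest on few reads, with 5 and 7 in G20C replicates B and C and 11 in U22A replicate B. The WT libraries had 16.9, 32.2 and 11.0 CPM, a mean of 20.0 ± 10.9 (SD, n = 3). Means ran from 8.94 ± 10.1 CPM in G20C to 25.8 ± 6.03 in G15A (SD, n = 3 each), and every pair of neighbours in the order overlapped. Here too, overlap of neighbours cannot show that genotypes are alike.

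**Figure D1:**
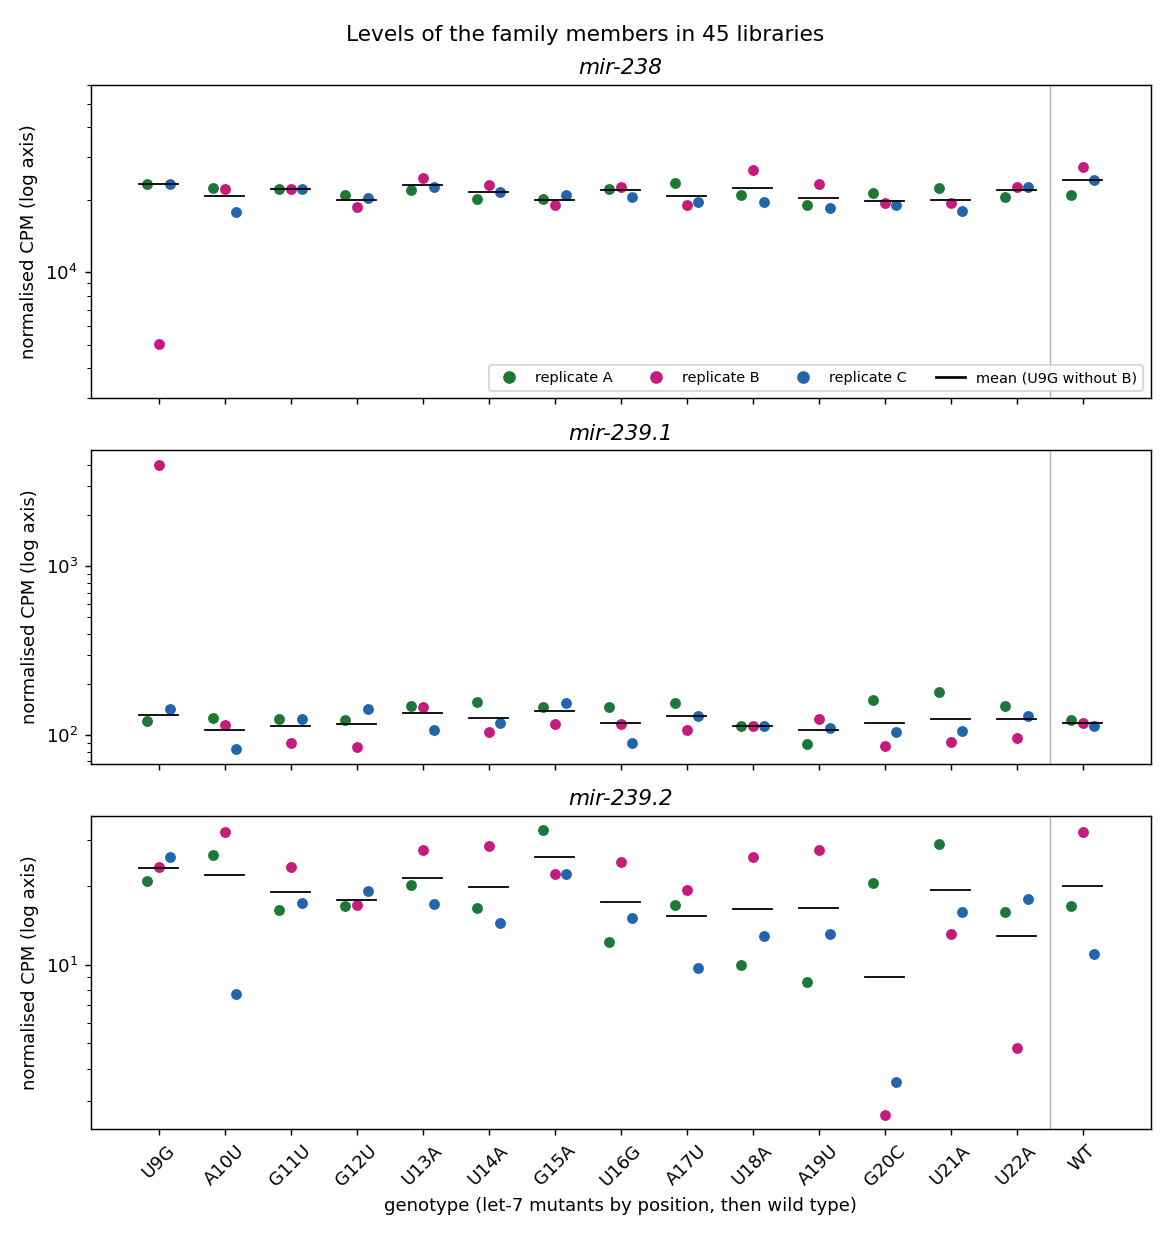
Normalised CPM on a log axis of mir-238, mir-239.1 and mir-239.2 in 45 libraries, by genotype, with points coloured by replicate letter and a line at the mean of each genotype (for U9G, the mean of A and C). U9G replicate B lies at 5057 CPM for mir-238 and 4002 CPM for mir-239.1, away from all others, whereas for mir-239.2 it lies among them at 23.8 CPM.

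In U9G replicate B the members went separate ways. mir-239.1 had 12128 reads, and its level was 30.3-fold the mean of U9G replicates A and C, 132 CPM. It was 22.3-fold the highest of the other 44 libraries, and among the 130 miRNAs tested only mir-233 and mir-67 had a larger ratio to the mean of A and C. mir-238 had 15328 reads, and its level was 4.60-fold lower than the mean of A and C, 23267 CPM, and 3.52-fold below the lowest of the other 44 libraries. mir-239.2, with 72 reads, was at 1.02-fold the mean of A and C, 23.4 CPM. Many miRNAs moved in this library, with 7 of 130 more than 8-fold higher and 17 more than 8-fold lower than the mean of A and C. The 7 include mir-239.1. The scaling factor of this library, 0.887, was the lowest of the 45. These are values of 1 library, with no replicate.

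**Figure D2:**
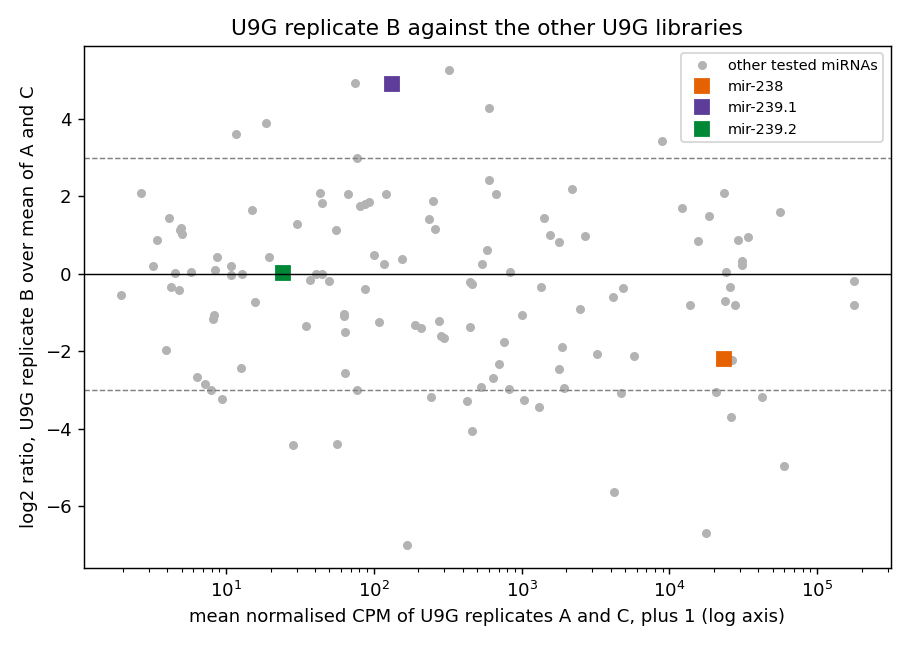
Each point is 1 of 130 tested miRNAs, with its mean normalised CPM in U9G replicates A and C plus 1 (log axis) against the log2 ratio of U9G replicate B to that mean. Dashed lines mark an 8-fold difference. mir-239.1 lies near the top, mir-238 is below 0 and mir-239.2 is close to 0.

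Each mutant was compared with WT by edgeR's quasi-likelihood test in 1 fit of all libraries, with p-values adjusted by Benjamini-Hochberg over all tested miRNAs in each comparison and a threshold of 0.05. All 14 comparisons share the WT libraries. With all 45 libraries, mir-239.1 rose in U9G by a log2 fold change of 3.59 (SE 0.672, 95% interval 2.22 to 4.95, adjusted p = 0.000275). This was the only call among the 42 tests of the members, and DESeq2, which set mir-239.1 aside for its outlying count, called 0 of the others, against 1.88% of the tests of all miRNAs to which it gave an adjusted p. In U9G, 9.23% of all tested miRNAs were called, and 0.828% in the other 13 mutants pooled. The call rested on 1 library. Without U9G replicate B the log2 fold change of mir-239.1 in U9G was 0.16 (SE 0.271, 95% interval -0.40 to 0.71, edgeR adjusted p = 0.988), and that interval does not hold the value found with it.

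Without U9G replicate B, 0 of the 42 tests of the members were called by edgeR and 0 by DESeq2, which called 2.85% of the tests of all miRNAs, and 5 of the 42 had a p under 0.05 before adjustment, against 7.84% of the tests of all miRNAs. These 5 were tests of mir-238, in A10U, G12U, G15A, A19U and U21A. Among all tested miRNAs, edgeR called 0.0% in U9G and 1.78% in the other 13 mutants pooled. In these 5 mutants the log2 fold changes of mir-238 were -0.25, -0.28, -0.25, -0.26 and -0.26. In G12U, which had the smallest unadjusted p of 0.0182, the 95% interval was -0.52 to -0.05 and the edgeR adjusted p was 0.238. Over the 14 mutants the log2 fold change of mir-238 ran from -0.28 in G12U to -0.05 in U9G without that library, and from -0.49 in U9G (edgeR adjusted p = 0.271) to -0.07 in U13A with it. Every comparison was made with the same WT libraries, of which replicate B was the highest of all libraries for this miRNA, so the 14 values are not independent.

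For mir-239.1, the other 13 mutants had log2 fold changes of -0.13, in A19U and A10U, to 0.24, in G15A, with an edgeR adjusted p of at least 0.975 with all 45 libraries. Without U9G replicate B these changes ran from -0.17 in A10U to 0.25 in G15A, with an edgeR adjusted p of at least 0.639. For mir-239.2, with all 45 libraries, the log2 fold changes of the 13 mutants ran from -1.17 in G20C to 0.33 in G15A. In G20C the 95% interval was -2.35 to 0.01 and the edgeR adjusted p was 0.990. The value moved with single libraries. Without G20C replicate A, which had 40 reads, it was -2.62 (SE 0.640, edgeR adjusted p = 0.0169), with 2 libraries of 5 and 7 reads left. It was -0.68 without G20C replicate B, -0.71 without G20C replicate C and -0.61 without WT replicate B, none of them called. In U22A the log2 fold change of mir-239.2 was -0.65. mir-238 in U9G also passed the threshold when either of the libraries that lie with the rest was left out, at -0.80 without U9G replicate A (edgeR adjusted p = 0.0449) and -0.77 without U9G replicate C (edgeR adjusted p = 0.0491), which leaves the library that stands apart and 1 other. Neither was called with all 45 libraries or without U9G replicate B.

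**Figure D3:**
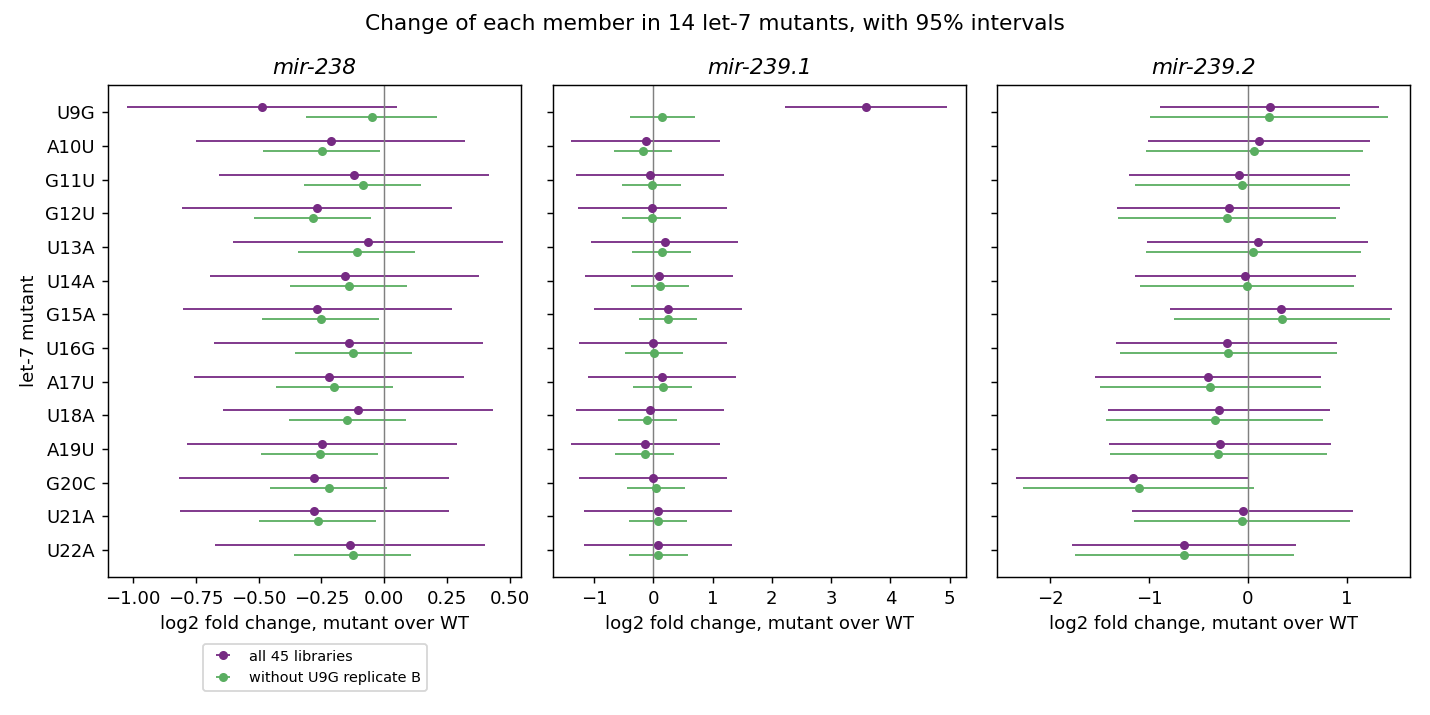
Log2 fold change of each member in each of 14 mutants over WT, with 95% intervals, from all 45 libraries (upper mark of each pair) and without U9G replicate B (lower mark). For mir-239.1 in U9G the estimate is 3.59 with all libraries and 0.16 without U9G replicate B, and the horizontal scales differ between panels.

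The call over all genotypes rested on the same library. The edgeR F-test across 15 genotypes called mir-239.1 with all 45 libraries (adjusted p = 2.46e-06) but not without U9G replicate B (adjusted p = 0.975). It did not call mir-238, with adjusted p = 0.998 and 0.667 without that library, or mir-239.2, with adjusted p = 0.885 and 0.862 without it. This test called 15.4% of all tested miRNAs with all libraries and 15.7% without U9G replicate B.

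For the mean of the 14 mutants over WT, 0 of 3 members were called by edgeR and 0 by DESeq2, as was 0.0% of all tested miRNAs with all 45 libraries and 0.0% without U9G replicate B. At an unadjusted p under 0.05 there were 7 miRNAs of 130, and 8 of 134 without that library. The mean log2 fold change of mir-238 was -0.21 (SE 0.189, edgeR adjusted p = 0.996). It was -0.18 without U9G replicate B (SE 0.0823, unadjusted p = 0.0369, edgeR adjusted p = 0.711) and -0.13 without WT replicate B. For mir-239.1 the mean was 0.29 (SE 0.463), against 0.04 without U9G replicate B (SE 0.179). For mir-239.2 it was -0.19 (SE 0.401) with all libraries and 0.30 (SE 0.503) without WT replicate B, so its sign depended on that library.

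As a check with no model, the libraries of each mutant were set beside those of WT, leaving out U9G replicate B. The libraries of the mutant lay all on 1 side of WT in 0 of 42 sets for the members, against 5.66% of all sets lower and 6.76% higher among all tested miRNAs. With the scaling computed without U9G replicate B, 4 of the 42 lay wholly below WT, mir-238 in G12U, G15A and U21A and mir-239.1 in U18A, against 6.13% of all sets lower and 6.34% higher. Scaled over all 45 libraries, mir-239.1 was at 113 to 114 CPM in U18A and 113 to 123 CPM in WT. Scaled without U9G replicate B, it was at 107 to 113.1 CPM in U18A and 113.4 to 127 CPM in WT. A small shift in scaling thus decided whether these libraries overlapped.

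The mir-239 genes lie on chromosome X, and the label of 6 mutants names a duplication marked X;V. Whether it covers the mir-239 genes is not given in the sources used here. Over counts summed per strain, the log2 fold change of the 6 labelled strains over the other 8 was 0.11 for mir-238 (SE 0.0772, edgeR adjusted p = 0.447), -1.41 for mir-239.1 (SE 0.713, edgeR adjusted p = 0.417) and 0.26 for mir-239.2 (SE 0.175, edgeR adjusted p = 0.447). The value of mir-239.1 rested on U9G replicate B, one of the libraries without the label. Without it the values were 0.02, 0.05 and 0.24, with edgeR adjusted p-values of 0.868, 0.820 and 0.604. DESeq2, run on all libraries, called 0 of the 3 members, and none of the 137 miRNAs tested was called by edgeR (0.0% with all libraries and 0.0% without U9G replicate B), while at an unadjusted p under 0.05 there were 15, or 16 when U9G replicate B was left out.

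On strain means of log2 CPM, mir-239.2 averaged 4.36 ± 0.209 in the labelled strains and 3.94 ± 0.542 in the others (SD, n = 6 and 8). The difference of 0.41 had p = 0.0713 in an exact two-sided permutation test over 3003 splits, and 0.42 with p = 0.0646 without U9G replicate B. For mir-239.1 the means were 6.95 ± 0.126 and 7.09 ± 0.651, a difference of -0.14 (exact permutation p = 0.978, or 0.06 with p = 0.380 without U9G replicate B). For mir-238 they were 14.39 ± 0.0812 and 14.27 ± 0.210, a difference of 0.12 (exact permutation p = 0.160, or 0.03 with p = 0.547 without U9G replicate B). No member passed the threshold in this comparison.

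The neighbouring mir-239 genes kept no fixed ratio of reads. In U9G replicate B the ratio of mir-239.1 to mir-239.2 reads was 168. Over the other 44 libraries its median was 7.26, and it ran from 3.58 in A10U replicate B to 32.6 in G20C replicate B, where mir-239.2 had 5 reads. The ratio moved with the replicate letter, with a median of 7.71 in libraries A, 4.88 in libraries B and 7.43 in libraries C. It was lowest in replicate B in 10 of the 14 genotypes with 3 libraries besides U9G. mir-239.1 was highest in replicate A in 9 of these 14, with median levels of 147 CPM in A, 111 in B and 114 in C. mir-239.2 was highest in replicate B in 9 of the 14, with median levels of 16.9 CPM in A, 24.2 in B and 15.1 in C.

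An edgeR F-test of the letter, with genotype in the model and chosen after the data had been seen, called mir-239.1 without U9G replicate B (adjusted p = 0.0115). Its log2 difference was -0.34 for B over A and -0.22 for C over A. mir-239.2 (adjusted p = 0.107) and mir-238 (adjusted p = 0.204) were not called by it. The letter was associated with many miRNAs, with 53.8% of all tested miRNAs called without U9G replicate B and 33.1% with all 45 libraries, where no member was called. The labels do not say what the letters stand for. Each genotype has 1 library of each letter.

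**Figure D4:**
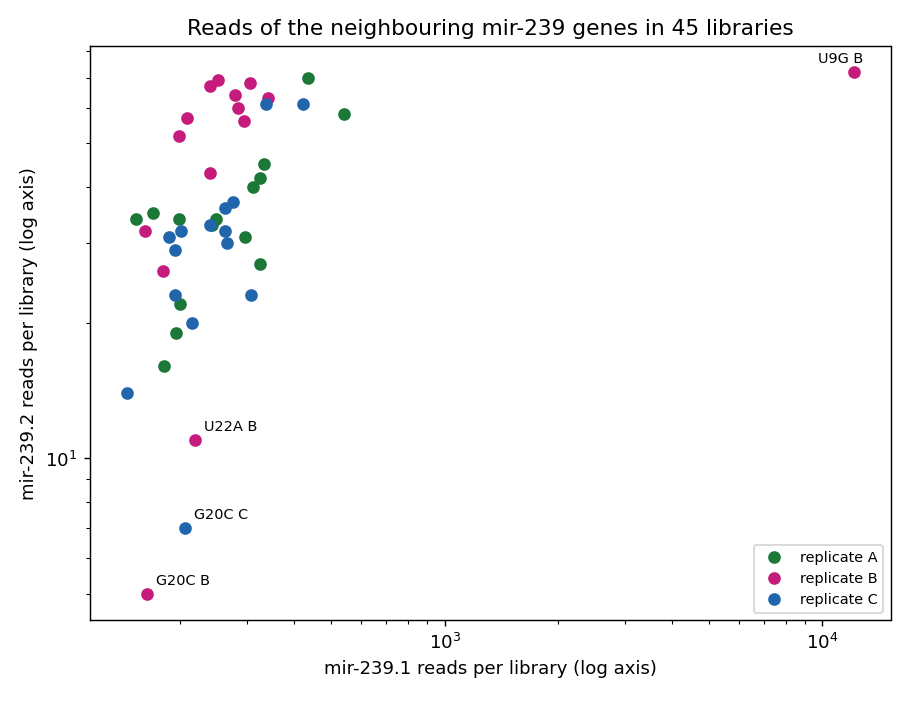
Reads of mir-239.1 (horizontal) and mir-239.2 (vertical) in each of 45 libraries, both on log axes, coloured by replicate letter, with 4 libraries named. U9G replicate B has 12128 reads of mir-239.1, against at most 543 in the others, while its 72 reads of mir-239.2 are near the 70 of the next highest library.

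The members also differed in their spread between replicates. Without U9G replicate B, the coefficient of variation within genotypes that edgeR estimated beyond counting error was 11.0% for mir-238, the third lowest of 134 miRNAs. It was 20.6% for mir-239.1, near the median of 21.6%, and 42.8% for mir-239.2, which ranked 121 of 134 from the lowest. With all 45 libraries the values were 23.4%, 50.8% and 43.5%, beside a median of 29.7%. One library thus moved the estimate of mir-239.1 above that of mir-239.2, and widened the intervals of mir-239.1 in every comparison.

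**Figure D5:**
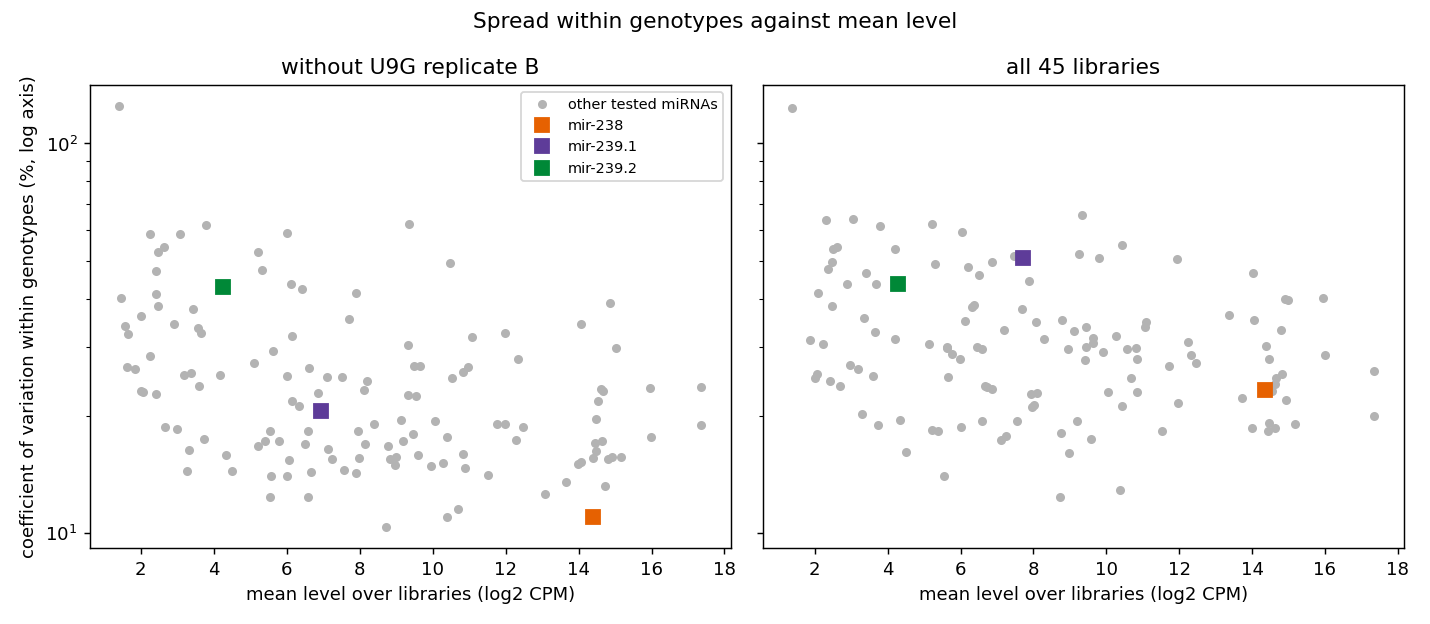
Coefficient of variation within genotypes (log axis) against mean level in log2 CPM for each tested miRNA, without U9G replicate B (left) and with all 45 libraries (right). mir-238 is among the least variable without U9G replicate B, at 11.0%, and mir-239.1 is at 20.6% on the left and 50.8% on the right.

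The miRNAs whose levels were most like those of each member were found by Spearman's rho of log2 CPM over the 44 libraries without U9G replicate B, as a description. The libraries share genotypes, replicate letters and scaling. For mir-238 they were mir-54 (rho 0.501), mir-239.2 (0.455) and mir-70 (0.357). For mir-239.1 they were mir-36 (0.573), mir-62 (0.519) and mir-41 (0.491). For mir-239.2 they were mir-70 (0.521), mir-2953 (0.483) and mir-62 (0.482). Between members, rho was 0.257 for mir-238 and mir-239.1 and 0.388 for mir-239.1 and mir-239.2. By Pearson's r the order of the pairs with mir-239.2 turned, with 0.425 for mir-239.1 and 0.387 for mir-238.

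Other worm miRNAs tied to lifespan or stress in published work were taken as a list of 14: lin-4, mir-34, mir-60, mir-64, mir-65, mir-66, mir-71, mir-80, mir-83, mir-124, mir-228, mir-229, mir-233 and mir-246. lin-4, mir-60, mir-71, mir-80 and mir-124 were listed at 0 in all libraries, which is a property of the table and cannot be read as absence from the animals. The other 9 gave 126 tests against WT. With all 45 libraries 2 of the 126 rose and 0 fell by edgeR, both of them in U9G, where 9.23% of all tested miRNAs were called. At an unadjusted p under 0.05, 3 were higher and 2 lower, against 6.21% of the tests of all miRNAs. The median log2 fold change over the 126 was 0.04, and 0.00 over all tests of all miRNAs.

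mir-233, linked to the response to bacterial infection in worms, had 319, 12436 and 324 CPM in U9G replicates A, B and C, against 284, 283 and 376 in WT. Its log2 fold change was 3.80 (SE 0.699, edgeR adjusted p = 0.000275) with all libraries and 0.03 without U9G replicate B. mir-83, a relative of the mammalian miR-29 family, had 228, 629 and 242 CPM in U9G, against 235.0, 241 and 159 in WT. Its log2 fold change was 0.79 (SE 0.240, edgeR adjusted p = 0.0266) with all libraries and 0.15 without U9G replicate B. As for mir-239.1, the U9G libraries A and C lay near WT and only B was high.

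Without U9G replicate B, edgeR called 0 of the 126 tests, with 3 higher and 6 lower at an unadjusted p under 0.05, against 7.84% of the tests of all miRNAs. DESeq2 called 4 of them, all lower: mir-229 in G11U, U13A and A19U, and mir-246 in G15A, against the 2.85% of all tests that it called. The largest change was that of mir-246, which like mir-238 is known to promote long life in worms. It had 2258, 1927 and 3599 CPM in G15A, against 6524, 4051 and 4578 in WT, so that all G15A libraries lay below all WT libraries. On this scale, 5.66% of all sets among all tested miRNAs lay wholly below WT. mir-246 in G15A was picked for the size of its change, so this separation is not independent of that choice. The log2 fold change was -0.97 (SE 0.329, edgeR adjusted p = 0.0861), or -0.96 with all 45 libraries (edgeR adjusted p = 0.147). The call depended on the fit, since DESeq2 gave an adjusted p of 0.0318 without U9G replicate B and edgeR gave 0.0308 with the replicate letter as a block. In the same mutant mir-238 had a log2 fold change of -0.25, mir-239.1 of 0.25 and mir-239.2 of 0.34 without U9G replicate B, none of which was called.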

How the data were processed

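The authors deposited a table of counts, in reads, with 1 row per miRNA gene and 45 library columns, and another in which each library has a row and let-7 reads are counted by form. Per the submitters' processing notes, cutadapt 1.9, Bowtie2 2.3.4.3, Subread 1.6.2 and featureCounts were used, and the labels' protocols name a kit for small RNA libraries. The genome build and the handling of reads that map to several places are not given in the sources used here, so positions are those of the WBcel235 annotation, matched by gene ID. The counts carry no molecular identifiers.

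The let-7 row was replaced by the count of the form each genotype encodes. The count test was edgeR 4.0.16, run in R 4.3.3 (TMM, filterByExpr by genotype, quasi-likelihood test, 1 coefficient per genotype), which tested 130 miRNAs, or 134 without U9G replicate B, including the 3 members. Levels are TMM-normalised CPM, and log2 CPM has a prior count of 2. The test by duplication label used counts summed per strain. Scripts were tested on simulated data. Alternatives were DESeq2 1.42.0 (size factors, and its test), scaling by total counts, a filter of 10 counts in each library or none, a block for the replicate letter, the let-7 row as deposited, the mir-239 genes added together, fits of the 6 libraries of a comparison, the 42 mutant libraries unsummed, and leaving out every library by turns.

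The members and lists were chosen with earlier results of these data known. Named were the 3 members in every genotype, their mutants with the highest and lowest change and those past the threshold. Of the lifespan and stress list, those at 0, those called and the largest change without U9G replicate B were named, with the 3 miRNAs most like each member. The tests of mir-238 with an unadjusted p under 0.05 and U22A were named after their values were seen.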

Additional observations from a re-analysis of the deposited data

Results flagged for a closer look

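Among the 8 strains without the duplication label, U9G lay apart from the others in its mean log2 CPM for mir-238, at 13.772, and for mir-239.1, at 8.689. These were 2 of 12 groups examined for a strain far from the rest, of which chance flags about 1 in 20, and none was found without U9G replicate B. The changes of mir-239.1 over WT differed among the 14 mutants by an edgeR F-test with all 45 libraries (adjusted p = 1.933e-06), and without U9G replicate B the adjusted p was 0.947. In that library mir-239.1 was at 4002 CPM, against 121 and 142 CPM in the other U9G libraries, and 24 of 130 miRNAs lay more than 8-fold from the mean of those libraries. What sets the library apart was not tested.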

How the results depend on the processing

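Among the 42 tests of the members against WT, 1 was called, mir-239.1 in U9G. The count was 0 in a fit with a replicate block and without U9G replicate B, 0 with the mir-239 genes added together without that library, 0 by DESeq2 without it and 0 in fits of only the 6 libraries compared. With 1 library left out it ran from 0 (without U9G replicate B) to 2 (without U9G replicate A, U9G replicate C or G20C replicate A). With all 45 libraries DESeq2 gave no adjusted p for mir-239.1, whose counts it treated as outlying, and it called 0 of the 28 tests of the other members. Across 15 genotypes the count was 1, against 0 in the fits without U9G replicate B with a replicate block, with the mir-239 genes added together and by DESeq2, and 0 to 1 with 1 library left out. DESeq2 with all 45 libraries also gave 0 across 15 genotypes, with an adjusted p for only 2 members. For the lifespan and stress list, DESeq2 called mir-66 and mir-83 in U9G, with an adjusted p for only 112 of the 126 tests. mir-66 was called by edgeR with no filter or a minimum of 10 counts, and not in the fit reported. The count for the list was 2 in the fit reported and 2 by DESeq2. It was 1 with a replicate block without U9G replicate B (mir-246 in G15A, -0.93, edgeR adjusted p = 0.0308), 4 by DESeq2 without that library (mir-229 in G11U, U13A and A19U, mir-246 in G15A), 0 in fits of only the 6 libraries, and 0 to 3 with 1 library left out, with 1 without WT replicate B or WT replicate C. The causes of these differences were not tested. No result turned its direction past the threshold. The other alternatives left these counts within 1.5 times.

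As for the replicate block, each mutant library was paired with the WT library of the same letter. Their deviations from the genotype means correlated over 0.1 in 35 of 42 pairs (range -0.346 to 0.585). Among all libraries, 38 of 45 correlated best with their own letter. This is a hint from the data of a shared source by letter. Since not every pair passed 0.1 and the labels do not say what a letter marks, the block was kept as an alternative. With the block and all 45 libraries mir-239.1 in U9G was at 3.55 (edgeR adjusted p = 0.000758), and the count of members stayed at 1. The miRNAs most like mir-238 and mir-239.2 by Pearson's r shared 1 of 3 with those by Spearman's rho. mir-239.2 had a median of 34 reads per library. Without U9G replicate B its coefficient of variation within genotypes, beyond counting error, was 42.8%. How much each adds to the width of its 95% intervals was not tested. The WT libraries number 3, and the 95% intervals of mir-239.2 were wide, so changes inside them are not excluded.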
